A study of Homo sapiens with 5 samples.

Results

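Wide methylated peaks, chosen by their width of 3000 bp or more, were 1054 of the 23350 peaks in 5 lists of methylated DNA, and merging those that overlapped by 1 bp or more gave 600 wide regions. Over all peaks the same merging gave 11260 regions, of which 600 held a wide peak, each of them 1 of the wide regions. The lists come from methylated DNA immunoprecipitation (MeDIP-seq), in which fragments bound by an antibody to 5-methylcytosine are sequenced and places with many fragments are reported as peaks. All libraries were made from K562, an established human line of chronic myeloid leukaemia cells grown in IMDM medium. The 2 wild-type libraries are labelled WT bulk and WT transfected, and the 3 others came from lines with mutated DNMT3A (MT1, MT2 and MT4). The labels' protocols speak of clones. They give neither the mutated alleles nor whether the mutations arose separately, and do not say what the wild-type line was transfected with. The libraries of a genotype thus carry different labels and cannot be taken as repeats of 1 culture, and p-values measure only the spread between these libraries.

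DNMT3A is a de novo DNA methyltransferase, which adds methyl groups to cytosines that carried none, mostly where C is followed by G. Most of the mammalian genome is methylated at such sites, but because they are sparse, MeDIP signal gathers where methylated CG sites are dense: methylated CpG islands, satellite and other repeats, and gene bodies rich in CG near chromosome ends. A peak is wide where such sites carry on over several kilobases, or where a caller joins neighbouring signal. Width, score and position are all that the lists give. Read totals were not used here, so the depth behind a peak is unknown, and a place without a peak only lacks a listed peak, whose lowest score was 90, and cannot be called unmethylated. For the same reason the word methylated rests on the pull-down: whether an input library was set against it is not known. Wilson intervals at 95% are given for shares; they cover counting error only, and neighbouring regions and PCR copies are not independent.

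MT4 had 317 wide peaks, WT bulk 311, WT transfected 155, MT2 141 and MT1 130. The highest and the lowest number thus both belonged to mutated lines, and WT bulk had nearly as many as MT4. Wide peaks averaged 233 ± 110 per library in wild type (SD, n = 2) and 196 ± 105 in mutated lines (SD, n = 3), a difference of -37 peaks that was smaller than the spread within either genotype (exact permutation test, two-sided, p = 0.6; 10 groupings allow no p under 0.1). Without WT bulk the difference changed sign to 41 peaks.

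As a share of its list, MT2 stood apart. Wide peaks were 9.89% of MT2 peaks (95% Wilson interval 8.45 to 11.5%), against 5.01% in WT bulk (4.49 to 5.58%), 4.57% in MT1 (3.87 to 5.41%), 3.77% in MT4 (3.39 to 4.20%) and 3.47% in WT transfected (2.97 to 4.05%). The interval of MT2 overlapped that of no other library. MT2 also had the shortest list, with 1426 peaks, and few narrow ones: 60 were under 1000 bp. That class held 664 of 2842 peaks in MT1 and 1472 of 4470 in WT transfected. It held 1781 of 6213 in WT bulk and 3602 of 8399 in MT4. A share of the list depends on these narrow peaks as well. With each list limited to its 1426 best-scoring peaks, the share was 4.91% in WT bulk (70 peaks), 4.91% in MT4 (70 peaks), 4.07% in WT transfected (58 peaks) and 5.75% in MT1 (82 peaks), so MT2 still had the largest. The lowest score kept at that length was 187 in MT4, 169 in WT bulk, 145 in WT transfected, 117 in MT1 and 90 in MT2. The part of list length and score depth in the MT2 share was otherwise not tested.

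**Figure D1:**
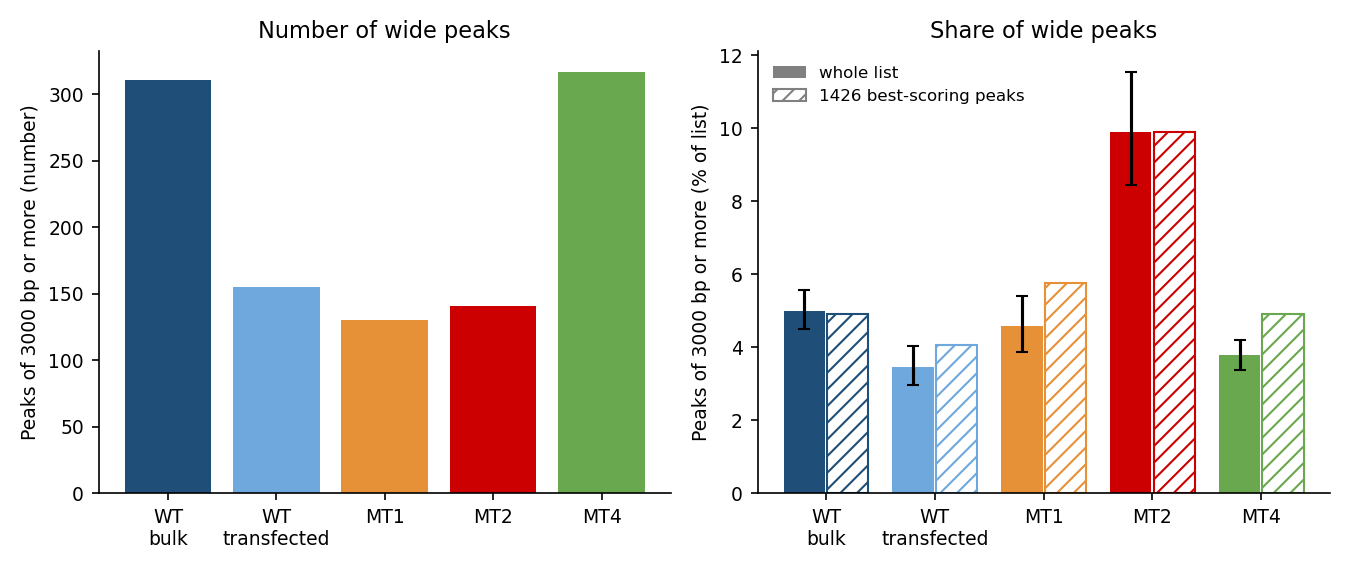
Number of peaks of 3000 bp or more per library (left, bars) and their share of the list in percent (right; filled bars are whole lists with 95% Wilson intervals, hatched bars are the 1426 best-scoring peaks of each list). WT bulk and MT4 have the most wide peaks (311 and 317), and MT2 has the largest share (9.89%) in both views.

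The mean share of wide peaks was 4.24 ± 1.09% in wild type (SD, n = 2) and 6.08 ± 3.32% in mutated lines (SD, n = 3), a difference of 1.84 percentage points (exact permutation p = 0.8, two-sided). Without MT2 it was -0.06. Of all base pairs under peaks, wide peaks held 19% in MT2, 13.3% in WT bulk, 11.5% in MT1, 11.3% in MT4 and 9.62% in WT transfected. The mean was 11.4 ± 2.57% in wild type (SD, n = 2) and 13.9 ± 4.40% in mutated lines (SD, n = 3; exact permutation p = 0.7), and the difference of 2.48 became -0.06 without MT2. In neither measure did the genotypes separate, since MT4 lay below WT bulk while MT2 lay above both wild-type libraries.

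The median width of the wide peaks, all cut off at the same lower limit, was 3699 bp in WT bulk, 3680.5 bp in MT1, 3629 bp in MT2, 3623 bp in MT4 and 3603 bp in WT transfected. Over whole lists the 95th percentile of width ran from 2710.6 bp in WT transfected to 3623.5 bp in MT2. Peaks of 4000 bp or more numbered 109 in WT bulk, 104 in MT4, 47 in WT transfected, 43 in MT2 and 36 in MT1. Peaks of 6000 bp or more numbered 13 in MT4, 6 in WT bulk, 4 in WT transfected and 1 each in MT1 and MT2. The narrowest wide peaks measured from 3000 bp (WT bulk) to 3011 bp (MT4), and the widest peaks left out from 2988 bp (MT2) to 2999 bp (MT1 and MT4). There was no gap in width at the limit: between 11 and 29 peaks per list lay within 100 bp below it and between 17 and 39 within 100 bp above it.

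Most wide peaks were not among the strongest peaks of their list. The median score percentile of wide peaks within their own list, where 50 is the middle of the list, was 47.5 in WT bulk, 53.8 in MT2, 56.8 in WT transfected, 57.5 in MT4 and 63.3 in MT1. Narrower peaks had medians from 49.4 (MT2) to 50.1 (WT bulk), above that of wide peaks in WT bulk only. The top 10% of scores held between 11.9% (WT bulk) and 17.02% (MT2) of the wide peaks, so more than 10% in every list. The bottom 10% held between 4.26% (MT2) and 11.3% (WT bulk). The mean of the median percentiles was 52.2 ± 6.53 in wild type (SD, n = 2) and 58.2 ± 4.81 in mutated lines (SD, n = 3; exact permutation p = 0.4, two-sided), with MT2 below WT transfected. That difference of 6.01 became -2.18 at equal list length and 1.39 to 10.6 without 1 library. Among wide peaks, width and score showed almost no relation: across the peaks of a list, Spearman's rho lay between -0.119 (WT bulk) and 0.067 (MT1), a description over peaks that share a library and are not replicates.

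Peaks of middling width, not the widest, scored best, except in MT1, where the class from 3000 to under 4000 bp was highest at percentile 63.5. In WT bulk the median percentile was 31.7 for peaks under 1000 bp, 65.7 for those from 2000 to under 2500 bp, 51.4 for those from 3000 to under 4000 bp and 39.6 for those of 4000 bp or more. WT transfected went from 34.3 to 70.7, 60.1 and 49.9 over the same classes. In the class from 2000 to under 2500 bp and in the widest class, MT4 stood at 60.6 and 57.3, MT2 at 56.6 and 51.1, and MT1 at 62.9 and 62.7. The widest class thus scored lower in all 5 lists, though hardly so in MT1. The share of peaks that no other list overlapped was lower at middling widths than at either extreme in the 3 longest lists. In WT bulk it was 36.3% under 1000 bp, 11.7% from 1500 to under 2000 bp and 25.7% at 4000 bp or more. In MT4 it was 58.7%, 20.9% and 31.7%, and in WT transfected 20.8%, 8.85% and 17.02%. In MT1 and MT2 the widest class stood at 5.56% (2 of 36 peaks) and 2.33% (1 of 43 peaks).

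**Figure D2:**
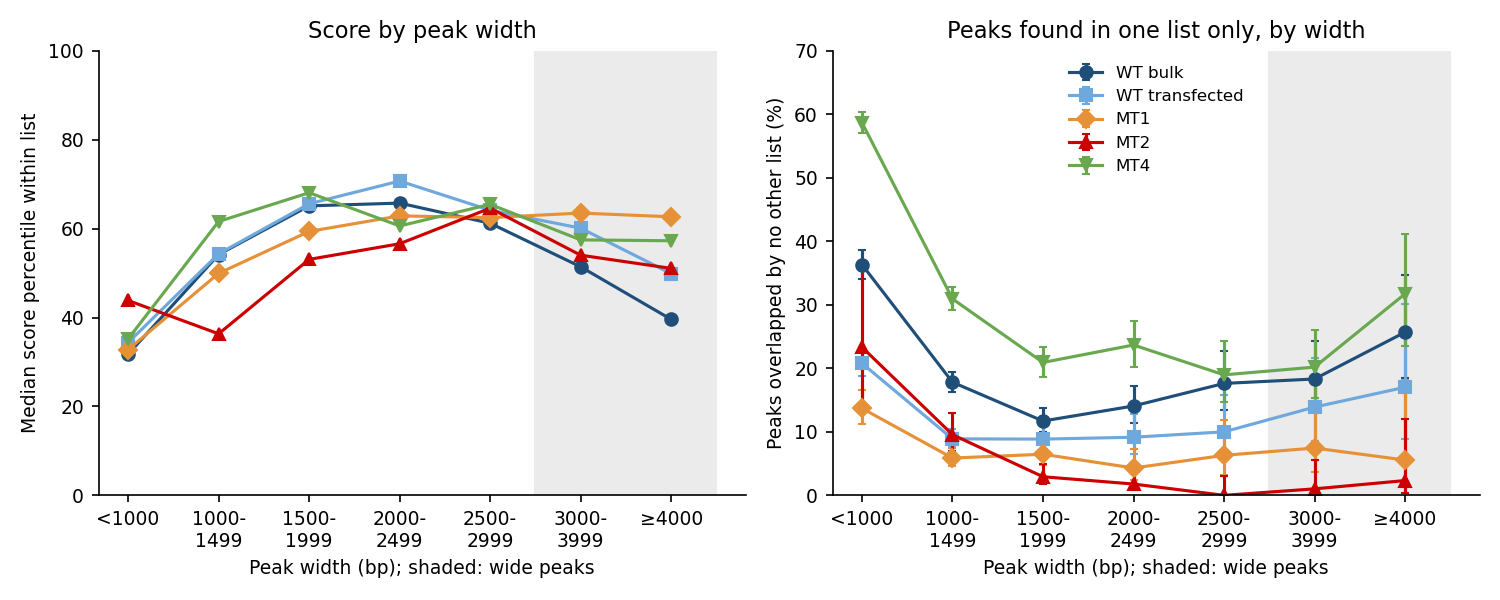
Median score percentile within the list (left) and percentage of peaks overlapped by no other list (right, with 95% Wilson intervals) for 7 classes of peak width, 1 line per library. The shaded classes are the wide peaks; in WT bulk the score falls from 65.7 (2000 to under 2500 bp) to 39.6 at 4000 bp or more while the share of peaks without a partner rises to 25.7%.

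At the 600 wide regions, 361 were wide in a single list, 116 in 2, 59 in 3, 36 in 4 and 28 in all 5. A peak of any width was more common: 124 regions (20.7%, 17.6 to 24.1%) had a peak in all 5 lists, where 7.42% of the 11260 merged regions of all peaks did. The share among the 10660 regions without a wide peak was 6.67% (6.21 to 7.16%). In only 1 library did 175 wide regions have a peak (29.2%, 25.7 to 32.9%), against 49.9% of all merged regions. Regions that hold a wide peak span more base pairs, which itself makes overlap with another list more likely. Of the 361 regions wide in a single list, 186 had a narrower peak or peaks in another list and 175 had none anywhere else. Of the 186, 48 had a peak in all 4 other lists. Counts of shared wide regions moved with the libraries included: 239 were wide in 2 or more lists, and 156 when WT bulk was left out.

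What the other lists held at a wide region was mostly nothing or 1 narrower peak, and seldom several. Over the 600 regions and 5 lists there were 1946 places where a list had no wide peak. In 1329 of these (68.3%) it had no peak, in 591 (30.4%) it had 1 narrower peak and in 26 (1.34%) it had 2. No list had 3 or more. MT2 had no peak at 434 of its 459 such places (94.6%), MT1 at 324 of 470 (68.9%), WT transfected at 260 of 445 (58.4%), MT4 at 158 of 283 (55.8%) and WT bulk at 153 of 289 (52.9%). This order is that of list length except that MT4, with the longest list, came before WT bulk. Lists without a peak rarely had one close by: a peak lay within 5 kb of the region in 6 (MT2) to 17 (WT transfected) of these cases. Where a list had 1 narrower peak, its median width was 2353 bp (WT transfected) to 2641 bp (MT2), and it covered a median of 65.3% (MT4) to 74.9% (MT2) of the region. It measured 2500 bp or more in 70 of 130 cases in WT bulk, 70 of 177 in WT transfected, 64 of 144 in MT1, 17 of 25 in MT2 and 46 of 115 in MT4. A large part of the narrower peaks were therefore within 500 bp of the width limit.

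**Figure D3:**
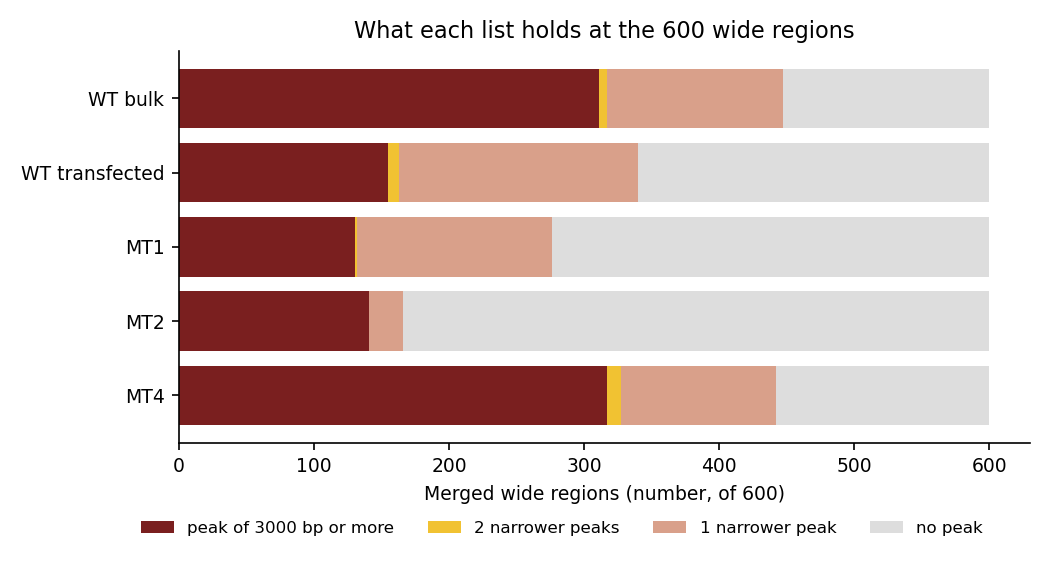
For each library (rows), the number of the 600 wide regions (x axis) at which its list held a peak of 3000 bp or more, 2 narrower peaks, 1 narrower peak or no peak. No peak is the most frequent state in WT transfected, MT1 and MT2 (434 regions in MT2), and 2 narrower peaks are rare in every list (0 to 10 regions).

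Wide peaks of MT2 differed in company from those of the other lists, as did its peaks in general. Of the 141, 106 (75.2%) were overlapped by all 4 other lists and 2 (1.42%) by none. For WT bulk the same shares were 19.3% and 20.9%, for MT4 23.03% and 23.97%, for WT transfected 26.5% and 14.8%, and for MT1 37.7% and 6.92%. Among peaks of any width, 58.6% of MT2 peaks, 29.4% of MT1 peaks, 18.8% of WT transfected peaks, 13.44% of WT bulk peaks and 9.95% of MT4 peaks were overlapped by all 4 others, so the order of the lists was the same without a width limit, apart from WT bulk and MT4. MT2 peaks from 2500 to under 3000 bp stood at 75.6%, beside the 75.2% of its wide ones. Yet the partners of MT2 wide peaks were mostly narrower. At MT2 wide peaks WT bulk had a wide peak in 42.6% (34.7 to 50.8%), a single narrower peak in 51.1% (42.9 to 59.2%) and no peak in 2.84% (1.11 to 7.07%). In the other direction, at WT bulk wide peaks MT2 had a wide peak in 19.3% (15.3 to 24.04%), a single narrower one in 3.86% (2.22 to 6.62%) and none in 76.8% (71.8 to 81.2%). MT2 therefore tended to be either wide or absent where another list was wide. By count, WT bulk and MT4, the lists with the most wide peaks, shared the most regions wide in both, 150 (48.2% of the 311 in WT bulk and 47.3% of the 317 in MT4). MT1 and WT transfected shared 71 (54.6% of MT1 and 45.8% of WT transfected). The wild-type pair had 103 regions wide in both (33.1% of WT bulk and 66.5% of WT transfected). MT1 and WT bulk, of different genotype, shared 91 (70% of MT1, the largest share in any pair, and 29.3% of WT bulk).

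In 34 regions MT2 alone was wide and each of the 4 other lists had exactly 1 narrower peak. The same arrangement occurred in 8 regions for MT4, 1 for WT bulk and none for WT transfected and MT1. MT2 had a median width of 3247 bp at its 34 regions, and the other lists' middle widths had a median of 2384.8 bp. These regions were selected on MT2 alone being wide, so its greater extent is in large part given by that choice. The MT2 peak reached beyond the others' median ends on both sides in 34 of 34 regions, by a median of 380 bp on the left and 395 bp on the right. It enclosed all 4 other peaks in 22. The widest of these regions lay on chromosome 19 from 47150820 to 47155140, where MT2 measured 4321 bp, WT bulk 1828 bp, WT transfected 1779 bp, MT1 1760 bp and MT4 2239 bp. Next came chromosome 6 from 20318333 to 20322432, with 4100 bp in MT2 and 1071, 1067, 1307 and 2539 bp in the other libraries in the same order. The third, on chromosome 7 from 100488319 to 100492381, measured 4063 bp in MT2 and 2448 to 2740 bp elsewhere. The 34 MT2 peaks had a median score percentile of 62.4 (quartiles 33.1 to 92.1).

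The 28 regions wide in all 5 lists had similar limits everywhere. The spread of the 5 starts had a median of 294 bp and that of the 5 ends 401.5 bp, and the stretch common to all lists covered a median of 84.3% of the region (60.4 to 92.3%). The coefficient of variation of the 5 widths had a median of 5.42%, from 2.52 to 20.3%. MT2 had the widest peak in 18 of the 28, WT bulk in 5, MT1 and MT4 in 2 each and WT transfected in 1. The ratio of a library's width to the median of the other 4 was 1.07 in MT2 (quartiles 1.03 to 1.12), 1.02 in WT bulk, 0.99 in MT1, 0.98 in MT4 and 0.95 in WT transfected. These are ratios among peaks that were all chosen as wide. Their scores were high for their lists, except in MT2: the median percentile was 91.8 in MT4, 90.7 in WT bulk, 83.4 in WT transfected, 81.5 in MT1 and 59.99 in MT2. In 14 of the 28 the peak was under percentile 50 of at least 1 list, most often MT2.

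**Figure D4:**
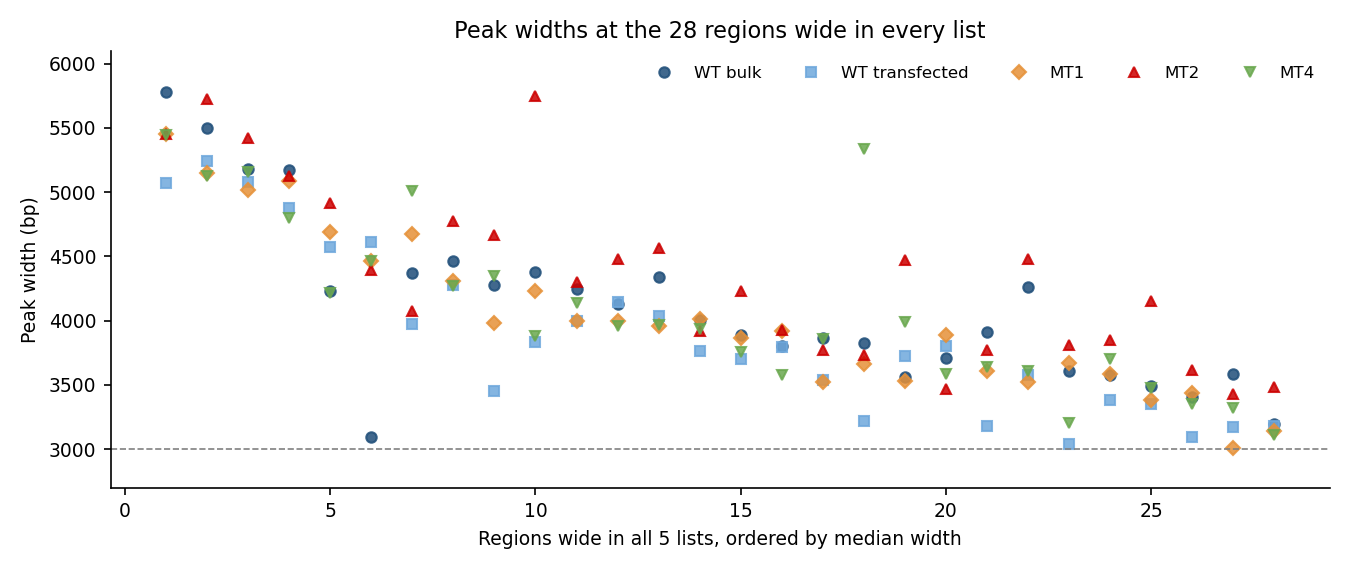
Peak width in bp (y axis) in each of the 5 libraries at the 28 regions that are wide in every list, ordered by their median width (x axis); the dashed line is the limit of 3000 bp. Points of a region lie close together, and MT2 (red triangles) has the widest peak in 18 of 28.

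By median width, the first of these regions was on chromosome 22 from 20306341 to 20312264. Its peaks measured 5780 bp in WT bulk, 5068 bp in WT transfected, 5449 bp in MT1, 5456 bp in MT2 and 5444 bp in MT4. The second, also on chromosome 22 (20745083 to 20750879), measured 5500, 5244, 5149, 5728 and 5122 bp in the same order. The third, on chromosome 7 from 127668554 to 127673971, measured 5179, 5082, 5015, 5418 and 5157 bp. In each of these 3 regions the lists differed by 403 to 712 bp, far less than the width itself. The fourth lay on chromosome 4 from 981158 to 986430, with 4800 bp in MT4 to 5169 bp in WT bulk, and the fifth on chromosome 22 from 22468486 to 22473403, with 4212 bp in MT4 to 4918 bp in MT2. The next was on chromosome 7 from 150092631 to 150097243, where WT bulk had 3098 bp and the other 4 libraries 4394 to 4613 bp. A region of chromosome 5 (138726510 to 138731959) spanned 3973 bp in WT transfected to 5011 bp in MT4. Those of chromosome 2 (74739674 to 74744452) and chromosome 6 (167311694 to 167316378) had their widest peak in MT2, with 4779 and 4664 bp. The tenth lay beside the centromere of chromosome 4 (49512080 to 49517824). There MT2 measured 5745 bp and the widest peak of each other list 3833 to 4377 bp. WT bulk, WT transfected and MT1 each had a second, narrower peak in this region. Their 2 peaks covered 89.8, 79.5 and 92.0% of it, and the single peak of MT4 67.5%. Gene annotation and sequence of hg19 were not used here, so these regions are given by position.

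The very widest peaks were mostly found in a single list. Of the 10 regions with the widest single peaks, 7 had a peak in 1 list only, and none was wide in MT2. The widest peak of all, 7178 bp, belonged to WT transfected, on chromosome 22 from 19771118 to 19778295, with a score of 91.6 at percentile 3.88 of its list. MT4 alone had 7027 bp on chromosome 5 from 1073316 to 1080342 (score 102), and WT bulk alone had 6872 bp on chromosome 21 from 46930990 to 46937861 (score 99.9). Other peaks in MT4 alone measured 6814 bp (chromosome 22, 21796865 to 21803678), 6587 bp (chromosome 1, 1683571 to 1690157), 6360 bp (chromosome 21, 44835639 to 44841998) and 6338 bp (chromosome 22, 22302337 to 22308674). The 3 others of the 10 were shared. On chromosome 1 from 16968722 to 16975560, WT bulk measured 6728 bp, WT transfected 6801 bp, MT1 6679 bp and MT4 6588 bp, and MT2 had no peak. Further along the chromosome, from 17017132 to 17023699, WT bulk measured 6518 bp, WT transfected 6299 bp and MT1 5485 bp, and neither MT2 nor MT4 had a peak. On chromosome 22 from 19133421 to 19140094, WT bulk and MT4 had 6475 and 6544 bp, WT transfected and MT1 4238 and 4311 bp, and MT2 had no peak.

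Wide peaks without any partner scored low in their lists. There were 76 in MT4, 65 in WT bulk, 23 in WT transfected, 9 in MT1 and 2 in MT2, with median score percentiles of 26.0, 17.2, 15.3, 32.5 and 11.1. In the same order they were 23.97, 20.9, 14.84, 6.923 and 1.418% of the wide peaks. Among peaks of any width, 40.34, 21.83, 13.06, 7.741 and 4.909% had no partner. The share was thus lower among wide peaks in each list except WT transfected, and by the most in MT4. Wide peaks that were narrower elsewhere and wide in no other list stood at 55.1 in MT4 and 44.96 in WT bulk. In both libraries the percentile rose further with company, to 64.1 and 57.3 for peaks wide in 2 to 4 lists and to 91.8 and 90.7 for those wide in all 5. Being in every list requires passing the score limit 5 times, so this order is in part built into the lists. Wide peaks with narrower partners only, whose partners lie under the limit by choice, had a median width of 3347 bp in MT4 and 3356 bp in WT bulk. It was 3671 and 3743 bp for peaks wide in 2 to 4 lists, and 3946.5 and 3959.5 bp for those wide in all 5. Peaks without a partner lay among these, with 3787 bp in MT4 and 3828 bp in WT bulk. Beyond those given above, the widest in the lists other than MT4 were 6090 bp in WT bulk (chromosome 22, 19490428 to 19496517), 5731 bp in WT transfected (chromosome 11, 67066652 to 67072382), 5194 bp in MT1 (chromosome 7, 150760720 to 150765913) and 4018 bp in MT2 (chromosome 4, 174427521 to 174431538).

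Regions with 2 narrower peaks in place of a wide one numbered 16, and 9 of them were wide in MT2 alone. Of the 16, 4 lay within 1 Mb of a centromere gap of the assembly. On chromosome 7 from 61967995 to 61971328, beside the centromere, MT2 had a single peak of 3334 bp, while WT bulk had peaks of 1444 and 549 bp, WT transfected of 1506 and 673 bp, MT1 of 1790 and 755 bp and MT4 of 1223 and 457 bp. On chromosome 10 from 42384284 to 42388044, again beside the centromere, MT2 measured 3761 bp and WT bulk, WT transfected and MT1 had 2 peaks each, parted by 1648 to 1907 bp. Most gaps were smaller. In 21 of the 26 cases the 2 peaks lay less than 250 bp apart, with a median gap of 120.5 bp over all cases and a smallest gap of 8 bp. An example is chromosome 5 from 21481273 to 21485249, with 3924 to 3959 bp in MT1, MT2 and MT4, 2773 bp in WT bulk, and 2 peaks of 2025 and 1761 bp set 18 bp apart in WT transfected.

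By genotype, 18 regions were wide in both wild-type lists and in no mutated one, and 3 were wide in all mutated lists and in neither wild-type one. Counted by peaks of any width, 22 of the 600 wide regions (3.67%, 2.43 to 5.49%) had a peak in both wild-type lists and in no mutated list, where 2.74% of all 11260 merged regions did. None of the 600 had a peak in all mutated lists and in neither wild-type list, which allows a share of up to 0.5% at 3 counts (Wilson upper limit 0.636%). Over all merged regions it was 0.071%. Both shares of wide regions were thus within counting error of those of all regions. Among the 18, 15 had no peak of any width in a mutated line. The widest was on chromosome 17 from 36283959 to 36289349, with 5357 bp in WT bulk and 5386 bp in WT transfected. Next, WT bulk and WT transfected measured 5153 and 3435 bp on chromosome 21 from 46719826 to 46724978. On chromosome 1 they measured 5090 and 4145 bp from 1304786 to 1309875, and 4041 and 4470 bp from 227917493 to 227921979. The fifth, on chromosome 11 from 828061 to 832503, measured 4397 and 3774 bp. None of the 5 had any peak in MT1, MT2 or MT4. Without WT bulk the 18 became 51, without WT transfected 131, without MT1 28 and without MT4 35.

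All 3 regions wide in the mutated lists only had narrower peaks in both wild-type lists, so they did not differ in presence. On chromosome 5 from 34189083 to 34194198, MT1 measured 4718 bp, MT2 5116 bp and MT4 4638 bp, against 2535 bp in WT bulk and 2218 bp in WT transfected. This was the largest contrast of the 3, and its peaks were at or above percentile 97.6 in all lists. On chromosome 7 from 150067376 to 150071498, MT1 measured 3230 bp, MT2 4123 bp and MT4 3258 bp, against 2827 and 2540 bp. The other is the region of chromosome 5 from 21481273 described above, where MT2 stood at percentile 8.13 and the other lists above 97. There the 2 peaks of WT transfected together covered 95.2% of the region. The mutated lists covered 98.67 to 99.55% of it and WT bulk 69.7%. The number of regions wide in the mutated lists only was 10 without WT bulk, 10 without MT1, 11 without MT2 and 7 without MT4.

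Wide regions were unevenly spread over the genome. Over the genome 5.33% of merged regions held a wide peak. On chromosome 22 it was 23.6% (57 of 241), on chromosome 19 11.6% (54 of 467), on chromosome 16 9.24% (33 of 357), on chromosome 21 8.70% (20 of 230) and on chromosome 9 7.93% (28 of 353). At the low end were chromosome X with 0.581% (1 of 172), chromosome 12 with 1.602% (7 of 437) and chromosome 14 with 1.74% (3 of 172). All 7 wide regions of chromosome 12 were wide in a single list. Within 3 Mb of an autosome end 14.4% of merged regions (136 of 946) held a wide peak, and 4.499% further away. The share of peaks that were wide was larger near the ends in all 5 libraries: 14.6% against 4.13% in WT bulk, 8.33% against 3.03% in WT transfected, 10.9% against 3.995% in MT1, 11.4% against 3.17% in MT4 and 12.9% against 9.68% in MT2. The intervals overlapped in MT2 alone (7.54 to 21.2% and 8.20 to 11.4%). Within 1 Mb of a centromere gap MT2 had 12 wide peaks of 47 (25.5%, 15.2 to 39.5%), while the other libraries had 4.82 to 7.90%.

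**Figure D5:**
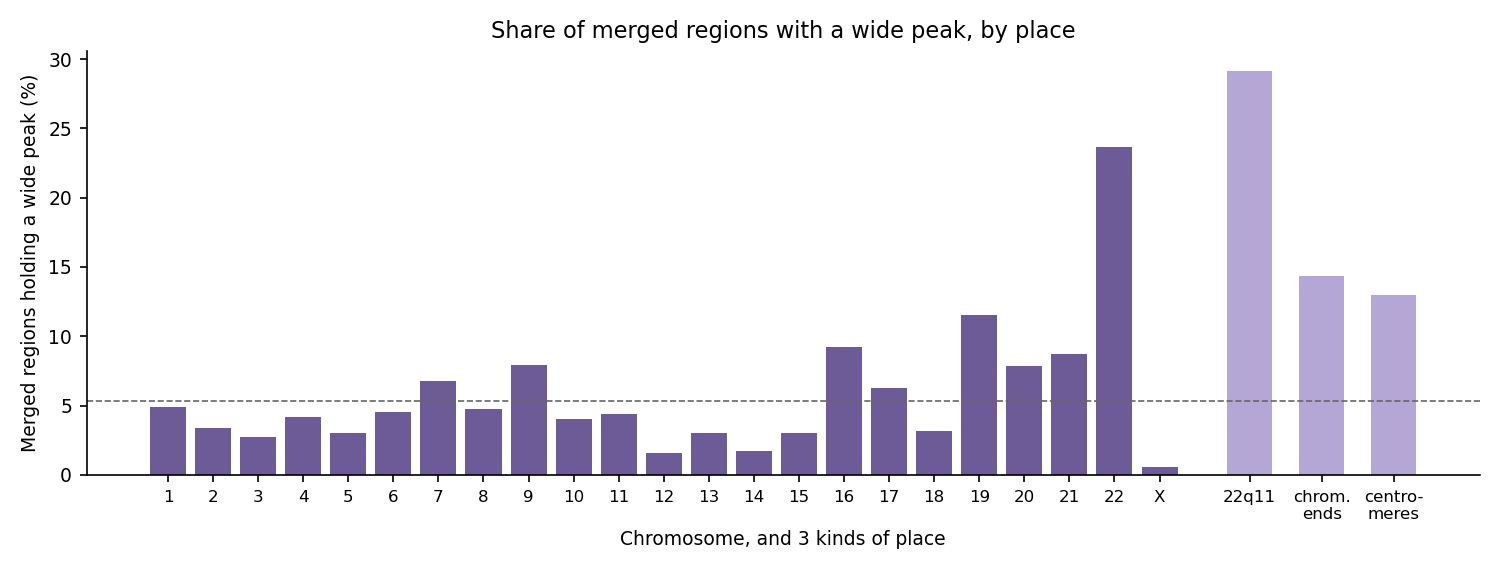
Percentage of merged regions of all peaks that hold a peak of 3000 bp or more, for chromosomes 1 to 22 and X (dark bars) and for 22q11, places within 3 Mb of an autosome end and places within 1 Mb of a centromere gap (light bars); the dashed line is the value over the whole genome (5.33%). Chromosome 22 reaches 23.6%, nearly all of it from 22q11 (29.1%).

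Wide regions also lay near one another. Of the 600, 447 (74.5%) had another wide region within 1 Mb, and 223 (37.2%) within 100 kb, with a median distance to the nearest of 211 kb. Of the 10660 merged regions without a wide peak, 38.8% had a wide region within 1 Mb. Outside 22q11 the share was 72.1% (396 of 549). Runs of wide regions linked by gaps of 1 Mb or less numbered 256, of which 25 held 5 or more regions and 244 regions in all. The longest run was on chromosome 22 from 16867908 to 23381659, with 52 wide regions among 178 merged ones. The run on chromosome 7 from 148787258 to 151109108 held 15 of 48, that on chromosome 1 from 755036 to 2586747 held 13 of 28, that on chromosome 21 from 46375120 to 48084113 held 12 of 37 and that on chromosome 9 from 138375679 to 140684199 held 12 of 28. In the chromosome 9 run MT4 had 10 wide peaks, WT bulk 5, WT transfected and MT1 2 each and MT2 none. In the chromosome 21 run WT bulk had 8, MT1 and MT4 3 each and WT transfected and MT2 2 each. The library with the most wide peaks therefore changed from run to run.

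The 22q11 segment, from 17 to 24 Mb, includes BCR, the fusion partner of ABL1 in this leukaemia, and K562 carries part of it in extra copies. In it 28.4% of WT bulk peaks were wide (27 of 95), 28.4% of WT transfected peaks (21 of 74), 26.1% of MT1 peaks (12 of 46), 50% of MT2 peaks (9 of 18) and 21.6% of MT4 peaks (32 of 148). Outside the segment the shares were 4.64%, 3.05%, 4.22%, 9.38% and 3.45%, and the intervals inside and outside did not overlap in any library. The segment held 4 of the 28 regions wide in all lists and 17 of the 175 without a partner, 13 of them in MT4. Copy number was not analysed here, and its part in these widths was not tested. On chromosome 9 from 133 to 135 Mb, which includes ABL1, 6 of 19 merged regions held a wide peak, and wide peaks numbered 5 of 10 in WT bulk, 3 of 4 in WT transfected, 1 of 2 in MT1 and 4 of 14 in MT4, with no peak of any width in MT2. The segment of chromosome 13 from 90 to 94 Mb held 3 of 85.

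Other gene segments, whose limits were set by hand, ran from no wide peak to more than the genome's share, which was 5.33% of merged regions and 4.51% of peaks. Shares of this kind are descriptions of small numbers of peaks. The clustered protocadherin genes of chromosome 5, which encode neuronal adhesion proteins, had 105 peaks and no wide one, which allows a share of up to 2.86% at 3 counts. The KRAB zinc finger clusters of chromosome 19, which encode repressors of transposable elements, had no wide peak among 29, 66 and 35 peaks in 3 segments (19p12, 19q13.12 and 19q13.4). At 3 counts these allow shares of up to 10.34, 4.545 and 8.571%, none of them below the 4.51% of all peaks. Beyond 56 Mb, near the end of the long arm, the clusters had 15 among 95 (15.8%). All the zinc finger segments together had 15 among 225 (6.67%). Over all lists, 11.7% of peaks within 3 Mb of an autosome end were wide, and 8.485% of those on chromosome 19. In the MHC segment, which holds antigen presentation genes, 10 of 96 merged regions (10.4%) held a wide peak. The histone gene segment of chromosome 6 had 5 wide peaks of 142 (3.52%). Of these, 4 were among the 15 MT2 peaks there (26.7%, 10.9 to 51.9%), while WT transfected, MT1 and MT4 had none. That interval overlapped the one for all MT2 peaks (9.89%, 8.45 to 11.55%). The HOX clusters, which encode developmental transcription factors, had 2 wide peaks of 70 (2.86%), both in HOXD and both among the 6 MT2 peaks of these clusters (33.3%, 9.68 to 70%). This interval also overlapped the one for all MT2 peaks. In the first HOXD region (176944625 to 176948950 on chromosome 2) MT2 measured 4326 bp, WT transfected 2551 bp and MT4 1465 bp, and WT bulk and MT1 had no peak. In the second (176969227 to 176973333) MT2 measured 4107 bp and WT bulk, WT transfected and MT4 1384 to 1631 bp, with none in MT1.

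Imprinted loci carry methylation on the copy from 1 parent. Whether a peak listed in such a segment lies at the parental mark was not determined. The MEST segment of chromosome 7, methylated on the maternal copy, held a region wide in all 5 lists, from 130129934 to 130133741. It measured 3610 bp in WT bulk, 3043 bp in WT transfected, 3673 bp in MT1, 3808 bp in MT2 and 3205 bp in MT4, at percentile 91.2 or above in each list. At the PEG3 segment of chromosome 19 (57348639 to 57352947) MT2 alone was wide, with 4309 bp, and WT bulk, WT transfected and MT4 had 1202 to 1336 bp. At the GNAS segment of chromosome 20 (57414419 to 57417878) MT4 alone was wide, with 3460 bp, and WT bulk, WT transfected and MT2 had 2218 to 2823 bp. MT1 had no peak at either. At the KCNQ1 segment of chromosome 11 (2780377 to 2784336) WT bulk and MT4 were wide, with 3330 and 3747 bp, WT transfected and MT1 had 1582 and 1789 bp, and MT2 had no peak. The segments of PLAGL1 and GRB10 had 7 peaks each and no wide one.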

How the data were processed

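MeDIP peaks were deposited as 1 list for each of the 5 libraries, none of them pooled. The submitters' processing notes name Bowtie 1.1.1, edgeR and hg19 without saying what each was for, and peak names begin with MACS. The sources used here do not give the caller's version, threshold or use of an input. Each deposited line holds a start, an end and the caller's score, which the authors did not describe and which was read only as a percentile within its list. No count model was fitted.

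Width is end minus start, and coordinates count from 1. Wide peaks were merged at 1 bp of overlap, and the state of each list at a region came from all its peaks there (pandas 2.3.3 and numpy 2.4.6 under Python 3.11.15). The counting was tested on simulated lists. Genotypes were compared by a two-sided exact permutation test over the 5 libraries (scipy 1.17.1). Alternatives were other width limits, a score limit, equal list length, other merging, autosomes and X only, and leaving out each library. The members, gene segments and tests were chosen with earlier results of these data known. Limits of gene segments, centromere gaps and chromosome ends came from general knowledge of hg19; no peak lay within a gap or past an end. Regions were named by rule: the 10 widest by median width among those wide in all lists, the 10 widest peaks, the first 5 per genotype class, the up to 5 widest without a partner per list (of which some are printed) and the 5 runs with the most regions. Regions in gene segments and the first 3 of the 34 MT2 regions were named beyond it.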

Additional observations from a re-analysis of the deposited data

How the results depend on the processing

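No paired analysis was possible because the labels pair no wild-type library with a mutated line. The exact permutation test cannot fall under p = 0.1 here, which it reached once, for the score percentile at 2500 bp (4.66). The difference in the number of wide peaks (-37) became 33.67 at equal list length, and ran from -115 to 41 without 1 library. That in the share of wide peaks ran from -0.06 to 2.99, that in the share of base pairs from -0.06 to 4.30, and that in the score percentile (6.01) from 1.39 to 10.6, with -2.18 at equal list length and 1.76 without 22q11. The other planned settings kept these signs. Width limits of 2500 and 4000 bp gave 1041 and 215 wide regions, 475 and 69 wide in 2 or more lists, 33 and 6 wide in wild type only and 844 and 123 with another within 1 Mb. At 4000 bp, 1 region was wide in mutated lines only and 74 were wide in 1 list and narrower in another. Keeping peaks scoring above the median over the 5 lists gave, in the order of regions, wide in 2 or more, wild type only, mutated only, narrower in another and within 1 Mb, 298, 134, 8, 1, 84 and 172. Equal list length gave 222, 91, 3, 73 and 92 for these except mutated only, which stayed within 1.5 times. Without 1 library the 6 counts ran from 465 to 584, 156 to 223, 20 to 131, 4 to 11, 140 to 179 and 331 to 434. Fewer lists to satisfy raise genotype counts by construction. Merging at 50% overlap or across 500 bp moved no count by over 1.5 times, and neither did leaving out 22q11, chosen after the data were seen. Depth is unknown, so an absent peak may be a missed one.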

Other observations

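Wide peaks found in a single list but scoring high there were rare and came from MT4. Among the 175 wide regions without a partner, 4 had a score percentile over 75, all in MT4, and 3 of these lay in 22q11. They were a peak of 6814 bp (chromosome 22, 21796865 to 21803678; score 285, percentile 96.7), 1 of 4653 bp (chromosome 22, 23152266 to 23156918; score 224, percentile 91.1), 1 of 4062 bp (chromosome 8, 10587334 to 10591395; score 180, percentile 80.8) and 1 of 3182 bp (chromosome 22, 23212716 to 23215897; score 171, percentile 77.8). In the other libraries the highest percentile of such a peak was 68.5 in WT bulk, 61.7 in WT transfected, 49.1 in MT1 and 15.9 in MT2.

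Wide regions without a partner lay near chromosome ends more often than the other classes of wide regions: 58 of 175 (33.1%) were within 3 Mb of an autosome end, against 29 of 186 (15.6%) that were wide in 1 list and narrower in another, 46 of 211 (21.8%) wide in 2 to 4 lists and 3 of 28 (10.7%) wide in all 5. Of the 58, 25 were in WT bulk, 23 in MT4, 7 in WT transfected, 3 in MT1 and 0 in MT2. Of all 11260 merged regions 8.40% lay there. The share among narrower peaks without a partner was not determined. On chromosome 4, which had 16 wide regions, MT4 was wide at 2, with 1 narrower peak at 4 and no peak at 10, while WT bulk was wide at 9 and MT2 at 7. MT4 had few peaks of any width on this chromosome, 137 of its 8399, against 292 of 6213 in WT bulk. On chromosome 7 below 60 Mb, with 13 wide regions, WT transfected was wide at none, with 1 narrower peak at 5 and no peak at 8, while MT4 was wide at 8 and WT bulk at 6. On the rest of chromosome 7 WT transfected was wide at 14 of 58. Over the whole of chromosome 7 WT transfected had 307 of its 4470 peaks of any width. WT bulk had 559 of 6213 there and MT4 837 of 8399. Peaks of any width below 60 Mb are not given separately here.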
